A study of Danio rerio with 4 samples.

Results

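The zebrafish chromosome 4 carried 1696 of the 50394 open chromatin peaks in the deposited single-nucleus table, and 202 of them began at or beyond 30 Mb, on what is described here as the long arm of that chromosome. These 202 long-arm peaks were chosen from their coordinates alone (chromosome 4, start of 30000000 or more, genome build danRer11), and the 1494 peaks of chromosome 4 that began before that limit served for comparison. The chromosome 4 long arm of zebrafish is known as a late-replicating, repeat-rich and largely heterochromatic arm. It is known for large families of NLR immune receptor genes and zinc finger genes, for many copies of 5S ribosomal and small nuclear RNA genes, and for a sex-linked region in wild strains. Heterochromatin is packed so that the transposase of an ATAC assay rarely inserts into it.

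The nuclei came from non-cardiomyocytes (nonCMs, the heart cells left after the muscle cells are removed) of wild-type zebrafish hearts. The 4 libraries, 1 for each time point, were labelled dpi0, dpi2, dpi7 and dpi14 for 0, 2, 7 and 14 days around a resection of the ventricular apex under tricaine anaesthesia, and the study describes its ventricles as uninjured and regenerating. The 4 libraries were merged in 1 table of 2737 nuclei in which a peak is open (1) or closed (0), and neither barcodes nor peak names show the library of a nucleus, so the nuclei were treated as 1 pooled sample and no time points were compared. All intervals are exact 95% intervals for counting error (binomial for shares, Poisson for sums of calls) or order-statistic intervals for medians, and with 1 sample no test was possible. The table held 3742096 open calls, and the depth of a nucleus (its number of open peaks) ran from 77 to 10959 around a median of 1147. The rows fall into 4 runs with barcodes sorted within each, of 430, 715, 748 and 844 nuclei and with median depths of 1382.5, 1294, 1230 and 898.5 open peaks. The runs are not tied to time points, and 6 barcodes occurred in 2 rows each, never within a run.

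The long arm was thinly covered with peaks for most of its length and more densely at its end. The 202 peaks spread over 47.3 Mb, from chr4:30717045-30717248 to chr4:77981545-77981900, at 4.27 peaks per Mb (3.70 to 4.91). The 1494 peaks below the limit lay at 49.9 per Mb (47.4 to 52.5). Within the long arm, 62 peaks lay between 30 and 72 Mb, here called the sparse stretch, at 1.5 per Mb (1.15 to 1.93), and 140 lay beyond 72 Mb, the distal stretch, at 23.5 per Mb (19.8 to 27.8). The border at 72 Mb was set with the positions known, so the contrast of the stretches in density is a description. Of the 42 bins of 1 Mb in the sparse stretch, 6 held no peak, 19 held 1 and 17 held 2 to 4. Each of the 6 distal bins held 16 to 33 peaks, which lies within the range of 9 to 94 over the 30 bins below the limit.

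Long-arm peaks stood far apart. The median gap from one peak to the next was 42570 bp, against 8410 bp below the limit. It was 585097 bp in the sparse stretch and 21548 bp in the distal stretch. All 14 gaps of more than 1 Mb on the chromosome lay in the sparse stretch, the largest of them 2172002 bp. Neighbours within 10 kb made up 38 of 201 long-arm gaps (18.9%) and 56.1% of those below the limit. The most isolated peak, chr4:70317145-70317345, had its nearest neighbour 1203117 bp away and was open in 8 nuclei. The pair chr4:43408101-43408581 and chr4:44577410-44577666 lay 1168829 bp apart, each the nearest peak of the other, and were open in 53 and 27 nuclei. These isolated peaks thus differed in openness. Peaks covered 0.146% of the long-arm span and 1.8% of the span below the limit.

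**Figure D1:**
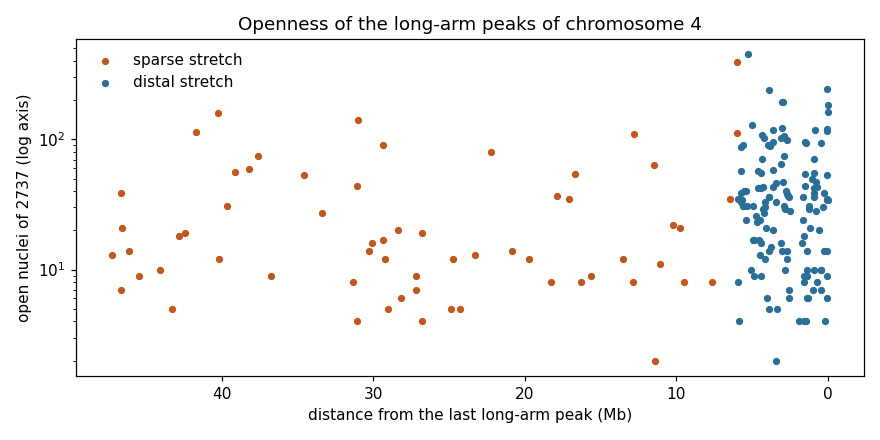
Each point is 1 of the 201 long-arm peaks open in at least 1 nucleus, with its distance from the last long-arm peak on the x axis (Mb) and its number of open nuclei of 2737 on a log y axis. The 62 peaks of the sparse stretch are spread over 41.3 Mb, the distal peaks crowd into the last 5.95 Mb, and the most open peaks, at 451 and 395 nuclei, lie on either side of the border.

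Where peaks occurred, their median width and openness were somewhat lower than below the limit, but for the long arm as a whole the intervals overlapped. The median width was 281 bp (264 to 326) on the long arm, 315 bp (307 to 325) below the limit and 323 bp over all peaks. The distal stretch, at 300 bp (272 to 349), overlapped the interval below the limit, whereas the sparse stretch, at 231 bp (204 to 292), did not. Exactly 200 bp, the smallest width in the table, was found for 33 long-arm peaks (16.3%), beside 9.77% of all peaks. These were 30.6% of the sparse and 10.0% of the distal peaks, so the excess lay in the sparse stretch. The widest long-arm peaks were chr4:77932990-77934029 (1039 bp), chr4:36251116-36252120 (1004 bp) and chr4:74109215-74110134 (919 bp).

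The median long-arm peak was open in 28 nuclei (20 to 33), or 1.02% of nuclei, and the median peak below the limit in 34 (31 to 36). The sparse and distal stretches had medians of 14 (12 to 21) and 31 (27 to 36). At least 1% of nuclei were open at 102 of the 202 long-arm peaks (50.5%), beside 57.8% of all peaks, a share that the distal stretch (58.6%) met and the sparse stretch (32.3%) did not. At the upper end the difference was larger, with 10 long-arm peaks (4.95%) open in at least 5% of nuclei, against 15.1% below the limit. In all, the long arm held 8915 open calls, which is 0.238% of all calls on 0.401% of the peaks. Its 1 peak open in no nucleus was chr4:73448678-73448878. On either side of the limit, chr4:29772416-29772664 and chr4:29967131-29967405 were open in 32 and 30 nuclei, and chr4:30717045-30717248 and chr4:31312036-31312236 in 13 and 7.

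In each class of width the long-arm median was the lower, with intervals that overlapped up to 399 bp, and the ratio of the medians was furthest from 1 among the widest peaks. Openness rose with width on the long arm as it did below the limit, with a Spearman correlation across peaks of 0.775 over 202 peaks and 0.797 over 1494. Peaks of 200 bp had medians of 8 (7 to 12) and 10 (9 to 12) open nuclei on the long arm and below the limit. At 201 to 249 bp the medians were 10 (9 to 15) and 15 (13 to 16), and at 250 to 299 bp 20 (12 to 30) and 26 (23 to 28). Peaks of 300 to 399 bp had medians of 37 (33 to 53) and 39.5 (36 to 44). At 400 to 599 bp the medians were 57 (42 to 75) and 84 (75 to 96). Among peaks of 600 bp or more, the 13 on the long arm had a median of 95 (54 to 192) and the 125 below the limit one of 222 (192 to 261). The wide peaks of the sparse stretch were the plainest case. The peak chr4:61291878-61292722, 844 bp wide, was open in 54 nuclei, where 348 peaks of like width (within 25 bp) had a median of 251 and 99.1% of them were at least as open. For chr4:36251116-36252120, open in 113 nuclei, 97.9% of 143 peaks of like width were at least as open, and for chr4:55759626-55760460, open in 80, 96.3% of 375.

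**Figure D2:**
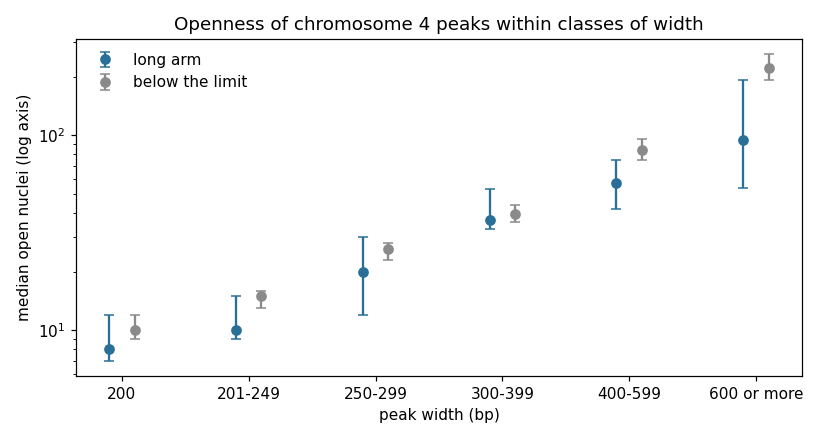
Points are the median number of open nuclei (log y axis) of chromosome 4 peaks in 6 classes of width (bp, x axis), and bars are 95% order-statistic intervals. The intervals of the long arm and of the peaks below the limit overlap up to 399 bp, and at 600 bp or more, where the medians are 95 and 222 nuclei, they only meet, at 192.

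The 2 most open peaks lay in the opposite direction. They were picked for their openness, so a low share of like-width peaks as open follows in part from the choice. The most open long-arm peak, chr4:72723495-72724006 (511 bp), was open in 451 nuclei, or 16.5% (15.1 to 17.9). Only 1.94% of 2676 peaks of like width were as open. By runs of rows it was open in 98, 107, 139 and 107 nuclei, which is 1.21, 0.84, 0.99 and 1.05 times the number expected from the depth of the runs. The second, chr4:71962267-71962663 (396 bp), was open in 395 nuclei, or 14.4% (13.1 to 15.8), and 0.668% of 4937 peaks of like width were as open. Its runs held 88, 116, 101 and 90 open nuclei, which is 1.24, 1.03, 0.82 and 1.01 times expected. Both peaks were thus open in every run and highest relative to depth in run 1, where their 186 calls together were 1.23 times (1.06 to 1.42) the 152 expected. They lay 761228 bp apart.

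The next 8 peaks in rank were open in 242 down to 141 nuclei. The first of them were chr4:77932990-77934029 (242) and chr4:74109215-74110134 (240), both wide, and for these 69.6% and 54.9% of peaks of like width were at least as open. After them came chr4:74943103-74943641 (195), chr4:74998308-74998962 (192), chr4:77979227-77979790 (184) and chr4:77981545-77981900 (163), all distal. The last, at 355 bp, was more open than most of its width, since 5.84% of like-width peaks reached it. From the sparse stretch came chr4:37696357-37696857 (159) and chr4:46982001-46982457 (141), where 25.5% and 20.7% of like-width peaks were as open. Together these 10 of the 202 peaks held 26.5% of long-arm calls.

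Most nuclei held a few long-arm calls, and no small set of nuclei held most of them. The median nucleus had 3 open long-arm peaks, with quartiles of 1 and 4. None was open in 276 nuclei (10.1%, 8.98 to 11.3), where 261 were expected if calls fell in proportion to depth. At the other end 96 nuclei had at least 10, with 82.1 expected. The highest, with 28 long-arm calls, was also the deepest nucleus of the table, at 10959 open peaks, and 26.1 calls were expected in it. The variance of the counts per nucleus over that expected from depth was 1.14 for the long arm, 1.16 for the distal stretch and 0.991 for the sparse stretch, against 1.48 for the peaks below the limit. This measure grows with the number of calls per nucleus. The median nucleus had 33 calls below the limit, so the value there cannot be set directly against those of the long arm. The deepest 10% of nuclei had 23.8% of long-arm calls and 23.8% of all calls.

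Depth did move with the sparse stretch. When nuclei were ranked by open peaks and divided into 5 equal groups, the sparse-stretch calls in the shallowest group (median 610.5 open peaks) were 1.36 times (1.20 to 1.53) those expected from depth. The deepest group stood at 0.972 (0.908 to 1.04). The distal stretch stood at 0.957 (0.879 to 1.04) and 1.03 (0.992 to 1.07) in the same groups, and the peaks below the limit at 0.989 and 1.0. The part of depth in the results on runs and clusters that follow was examined only by the alternatives named there.

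Over the 4 runs of rows the long arm stayed close to expectation. Observed over expected calls were 0.971 (0.923 to 1.02), 0.960 (0.922 to 0.999), 1.02 (0.979 to 1.05) and 1.05 (1.01 to 1.1) in runs 1 to 4. The peaks below the limit stood between 0.988 and 1.02. When the expected number also followed the cluster of each nucleus, the long arm stood at 1.04, 0.978, 0.982 and 1.03, and its interval held 1 in each run. The sparse stretch kept some spread under that expectation, from 0.911 (0.842 to 0.983) in run 3 to 1.13 (1.03 to 1.24) in run 1.

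Ratios of single long-arm peaks lay further from 1, but each rests on far fewer calls than the sum. Counts of peaks with high ratios were close to the share over all peaks or rested on 1 peak. Among the 52 long-arm peaks open in at least 50 nuclei, 7 reached 1.5 times their expected number in run 1 (13.5%), beside 14.7% of all 19642 such peaks. Run 2 had 1 such peak (background 4.43%), run 3 had 1 (background 0.662%) and run 4 had 1 (background 2.64%). The largest value in run 1 was that of chr4:61291878-61292722, open in 20 of 430 nuclei (4.65%, 2.86 to 7.09) and in 34 of the other 2307 (1.47%, 1.02 to 2.05). After it came the sparse-stretch peaks chr4:48616004-48616720, at 1.78 times expected (1.19 to 2.55), and chr4:36251116-36252120, at 1.73 (1.20 to 2.40). The wide peak chr4:55759626-55760460 went the other way, with 5 of 430 nuclei open in run 1, a ratio of 0.349 (0.113 to 0.814), and 37 of 715 in run 2, a ratio of 1.63 (1.15 to 2.25). These 4 peaks are 716 to 1004 bp wide, and each is less open than most peaks of its width. In run 3 the highest was chr4:76489378-76489668 (1.54, 1.01 to 2.26), which was also the lowest in run 4 (0.412, 0.134 to 0.961). In run 4 the highest was chr4:66529764-66530200 (1.62, 1.03 to 2.44). These peaks were picked as extremes among 52 in each run, so some such intervals miss 1 by counting error alone.

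To see whether the long arm followed the kinds of nuclei, the nuclei were divided into 13 clusters by their open peaks on all other chromosomes, so that no chromosome 4 peak took part in making the clusters. The clusters are numbered by size, from 391 to 51 nuclei, and carry no cell type names, because no annotation of this genome build was used. Long-arm calls ranged from 0.749 times expected (0.656 to 0.852) in cluster 9 to 1.29 (1.22 to 1.37) in cluster 3. Cluster 8 also stood high, at 1.19 (1.11 to 1.26), and clusters 1 and 7 low, at 0.808 (0.762 to 0.856) and 0.854 (0.791 to 0.920). The peaks below the limit, as a sum, moved over a smaller range, from 0.888 (0.865 to 0.912) in cluster 5 to 1.12 (1.08 to 1.15) in cluster 9. That sum is over 1494 peaks and the long-arm sum over 202, and highs and lows of single peaks can cancel in a sum. In cluster 2 the sum below the limit stood at 0.904, but the median peak there open in at least 50 nuclei stood at 0.337. The ranges therefore do not show how far single peaks varied. In cluster 9, then, the part of the chromosome below the limit was at its highest where the long arm was at its lowest.

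The distal stretch showed this pattern most clearly. It ranged from 0.695 (0.592 to 0.811) in cluster 9 to 1.33 (1.25 to 1.41) in cluster 3, with 1.25 (1.16 to 1.34) in cluster 8 and 0.775 (0.723 to 0.830) in cluster 1. The sparse stretch was also above 1 in cluster 3, at 1.19 (1.06 to 1.33), and stood at 0.904, 0.887 and 0.907 in clusters 1, 7 and 9, with intervals that hold 1. It was highest in cluster 5, at 1.29 (1.1 to 1.5), which is also the cluster of the lowest median depth, at 678 open peaks. Its lowest value, 0.801 (0.634 to 0.998), was in cluster 11, where the distal stretch stood at 1.20 (1.08 to 1.34). The stretches were thus on the same side of 1 in clusters 1, 3, 7 and 9. They were on opposite sides in clusters 5 and 11, although the interval of the distal stretch in cluster 5 (0.837 to 1.04) holds 1. In cluster 8 the sparse stretch stood at 1.0 (0.872 to 1.14), so the excess there lay in the distal stretch. Clusters 6 and 13 also had the stretches on opposite sides of 1, but with intervals that hold 1.

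**Figure D3:**
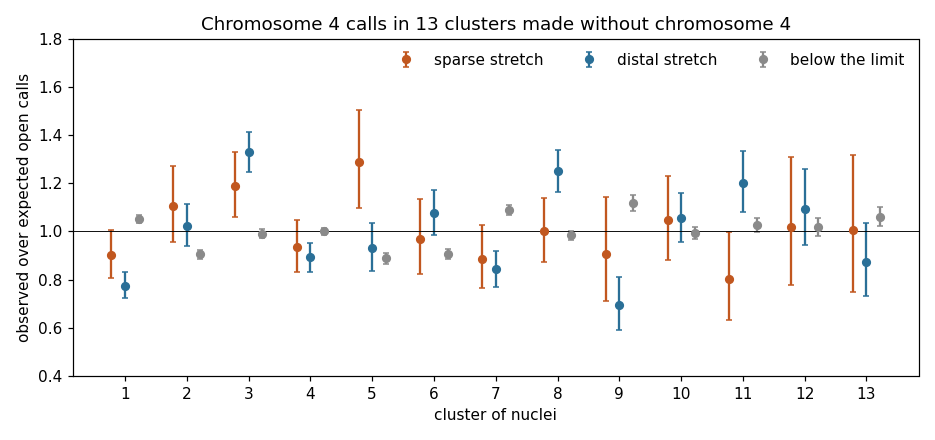
Points are observed over expected open calls (y axis) in each of 13 clusters of nuclei (x axis) for the sparse stretch, the distal stretch and the chromosome 4 peaks below the limit, and bars are exact 95% Poisson intervals. The intervals of the distal stretch lie above 1 in clusters 3, 8 and 11 and below 1 in clusters 1, 4, 7 and 9, while the peaks below the limit stay between 0.888 and 1.12.

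The long-arm ratios recurred within runs where a cluster had at least 20 nuclei in the run. Cluster 3 stood at 1.36, 1.37, 1.18 and 1.34 in runs 1 to 4, with every interval above 1. Cluster 1 stood at 0.876, 0.786, 0.773 and 0.809, with every interval below 1. Cluster 9 reached 20 nuclei only in runs 3 and 4, at 0.690 and 0.719, and cluster 8 in runs 2, 3 and 4, at 1.21, 1.24 and 1.08. With the 2606 nuclei of at least 500 open peaks each thinned to 500 open calls, clusters 3 and 9 stood at 1.38 and 0.717 (0.592 to 0.861). The 131 shallower nuclei were left out of that check. The intervals of cluster 8 in run 4 (0.899 to 1.28) and of cluster 7 in run 3 (0.791 to 1.1) held 1. Those of clusters 3 and 1 did not hold 1 in any run. In nuclei with at least 1000 open peaks the cluster nearest to cluster 9 had 22 nuclei and stood at 0.880, with an interval of 0.672 to 1.13 that holds 1.

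Looked at one by one, long-arm peaks tended to follow the clusters less than the peaks below the limit did. For each peak open in at least 50 nuclei a spread index was formed, in which the squared deviation of its open calls from the number expected from depth was divided by that number, summed over the 13 clusters and divided by 12, so that calls that follow depth alone give about 1. The limits of 2 and 4 for this index were set after its values were seen. The index was under 2 for 23 of the 52 long-arm peaks (44.2%), beside 15.3% of all such peaks and 13.8% of the 565 below the limit. It was 4 or more for 13 of the 52 (25%), beside 59.3% of all such peaks and 60.7% of those below the limit. The medians were 2.32 on the long arm and 5.36 below the limit. The index grows with the number of open nuclei, so classes were compared. At 50 to 74 open nuclei the medians were 1.65 over 16 long-arm peaks and 4.26 over 159 below the limit. They were 2.92 over 13 and 5.19 over 94 at 75 to 99, and 2.60 over 19 and 5.96 over 180 at 100 to 199. At 200 to 499 they were 2.76 over 4 and 5.56 over 112. The distal medians, 1.99, 3.96, 2.84 and 3.36, were also the lower. At 75 to 99, 3 of 3 sparse and 2 of 10 distal peaks (20%) were under 2, beside 14.9% below the limit. At 200 to 499, 0 of 3 distal peaks were, beside 13.4%. Like the long arm, the peaks below the limit took no part in the clustering. By the median index, long-arm peaks open in at least 50 nuclei were thus more evenly spread over the clusters than peaks of the same chromosome below the limit. The share under 2 showed this less clearly in the distal stretch, and the classes hold few peaks.

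The same evenness showed in clusters 2, 5 and 6, but not in clusters 1 and 4. In clusters 2, 5 and 6 the median long-arm peak stood at 0.986, 0.994 and 1.04 times expected. The median peak below the limit stood there at 0.337, 0.594 and 0.374, and the median of all peaks at 0.477, 0.721 and 0.586. In cluster 3 the long-arm median was 1.11, beside 0.751 below the limit. In clusters 1 and 4 the long-arm median was the further from 1, at 0.769 and 0.793, beside 0.954 and 0.888 below the limit. At 2 times expected or more, the long arm had 6 of 52 peaks in cluster 2 (background 14.4%), 5 in cluster 5 (background 9.04%) and 5 in cluster 6 (background 14.4%). For clusters 1, 3 and 4 the counts were 1 (background 11.3%), 6 (background 9.89%) and 3 (background 11.8%). In clusters 1 and 4 these counts came to 1.92% and 5.77%, below the background, and elsewhere they lay nearer to it. At 0.5 times expected or less were 25%, 30.8% and 30.8% of long-arm peaks in clusters 2, 5 and 6, against 56.8%, 43.5% and 53.3% of those below the limit and 50.8%, 37.8% and 47.5% of all peaks. In clusters 1 and 4 the long-arm shares, 19.2% and 21.2%, were close to the 17.9% and 19.3% below the limit.

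**Figure D4:**
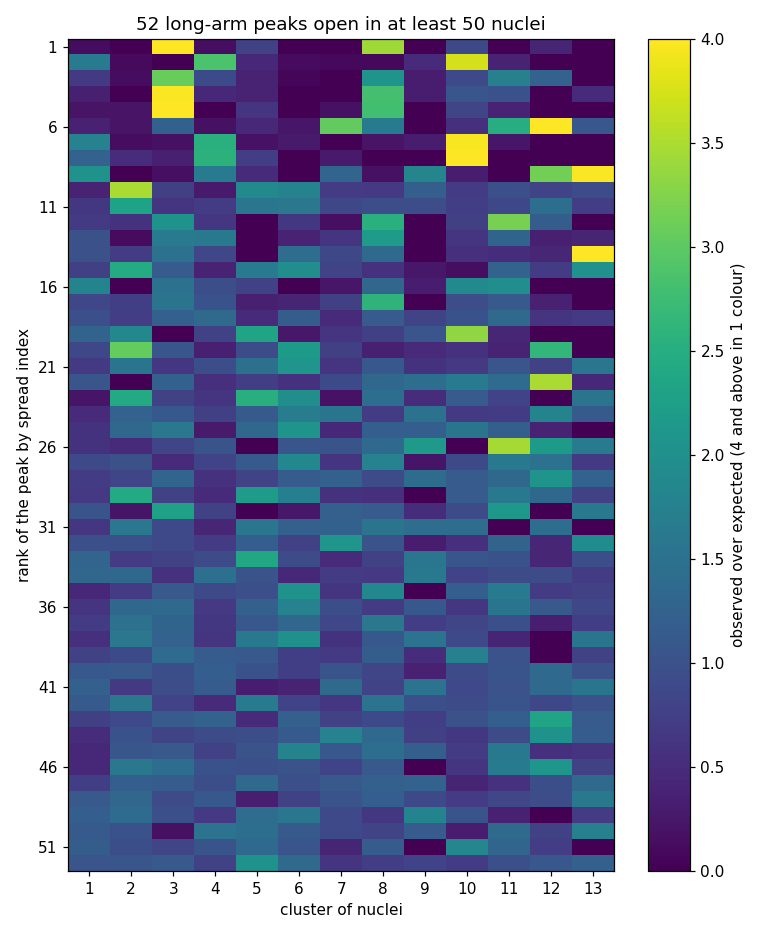
Each row is 1 of the 52 long-arm peaks open in at least 50 nuclei, ordered by spread index from 20.0 at the top to 0.641 at the bottom, each column is 1 of 13 clusters, and the colour is observed over expected open calls. About the first 10 rows hold strong highs and lows. The lower rows are more even by their index, but single values there still stand high, such as 4.91 for chr4:74141356-74141824 in cluster 13.

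Of the 10 most open long-arm peaks, 3 had an index under 2: chr4:71962267-71962663 with 1.1, chr4:37696357-37696857 with 0.855 and chr4:77981545-77981900 with 0.817. The other 7 ran from 2.15 to 14.0. The peak open in the most nuclei, chr4:72723495-72724006, had 3.36, with its lowest ratio in cluster 5 (12 nuclei, 0.48) and its highest in clusters 4 and 11 (1.38 in both). Most of these 10 peaks thus had an index of 2 or more, but so did most peaks elsewhere. Among peaks open in at least 50 nuclei, 15.3% of all peaks and 13.8% of those below the limit were under 2. The index also grows with the number of open nuclei, so the count is not read as a trait of the very open long-arm peaks.

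The 13 uneven peaks included 2 sets, formed after their values were seen. Each set was picked by its ratios in the clusters named, so its high ratios and share of calls there follow from the choice. Peaks outside the long arm were not searched for such sets. In the first set, 5 peaks stood at 2 times expected or more in both cluster 3 and cluster 8, and together had 326 of their 492 calls (66.3%) in those clusters, which hold 21.1% of all calls. Its most uneven member, chr4:77517572-77518093, was open in 48 of 285 nuclei of cluster 3 (16.8%, 12.7 to 21.7), and in 45 of the other 2452 (1.84%, 1.34 to 2.45). It was open in 31 nuclei of cluster 8, in 2 of cluster 1 and in none of the 232 of cluster 6, which allows a share of up to 1.29% when a count of 0 is taken to allow 3 counts, a limit used for every share of 0 here. The others were chr4:39751500-39751934, at 4.93 times expected in cluster 3 (3.40 to 6.93), chr4:74052817-74053523, at 3.97 (2.85 to 5.39), chr4:77979227-77979790, at 3.07 (2.36 to 3.92), and chr4:74929306-74929608, at 2.04 (1.14 to 3.36). They are not neighbours. The first of these lies in the sparse stretch with no other peak within 619518 bp, and the rest are spread over the distal stretch. Unlike the other members, chr4:74929306-74929608 was highest outside these clusters, at 3.18 times expected in cluster 11.

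In the second set, 3 peaks stood at 2 times expected or more in both cluster 4 and cluster 10, with 183 of 288 calls there (63.5%) beside 20.6% of all calls. The peak chr4:74359884-74360302 was open in 49 of 284 nuclei of cluster 4 (17.3%, 13 to 22.2), and in none of the 285 of cluster 3, which allows a share of up to 1.05%. Its neighbour chr4:74367757-74368285 had ratios of 2.54 (1.77 to 3.53) and 3.96 (2.51 to 5.94) in clusters 4 and 10. The third, chr4:75077212-75077612, had 2.58 (1.71 to 3.72) and 4.58 (2.83 to 6.99). In cluster 4, chr4:39751500-39751934 of the first set was open in none of the 284 nuclei, which allows a share of up to 1.06%. There chr4:77517572-77518093 of the same set stood at 0.148 (0.0180 to 0.536). Clusters 3 and 4 thus lay on opposite sides of expectation at these peaks and at chr4:74359884-74360302.

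Other uneven peaks had patterns of their own. The sparse-stretch peak chr4:46982001-46982457 was open in 39 of 304 nuclei of cluster 2 (12.8%, 9.28 to 17.1), and in 4.19% (3.43 to 5.07) of the other nuclei. The peak chr4:65210598-65210979 was high in clusters 13 (3.98, 1.91 to 7.31) and 1 (2.05, 1.44 to 2.84) and was open in none of the 304 nuclei of cluster 2, which allows a share of up to 0.987%. The peak chr4:77941265-77942116 was high in clusters 12 (4.48, 2.45 to 7.52) and 7 (3.04, 2.09 to 4.27). Without the 13 uneven peaks the long arm still stood at 1.23 (1.15 to 1.31) in cluster 3, 1.14 (1.07 to 1.22) in cluster 8 and 0.797 (0.692 to 0.913) in cluster 9. The excess was then smaller in cluster 3, but the other 189 peaks as a group kept clusters 3 and 8 above 1 and cluster 9 below it. The index was formed only for the 52 long-arm peaks open in at least 50 nuclei. Less open peaks could not be called uneven and all stayed in. The removal therefore cannot show whether these ratios would hold without uneven peaks of fewer calls. The order of the clusters was not kept. Cluster 6 moved from 1.05 (0.970 to 1.13) to 1.15 (1.06 to 1.25). Clusters 2 and 11 moved to 1.09 (1.01 to 1.18) and 1.12 (1.01 to 1.24), where their intervals with all 202 peaks had held 1.

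Near neighbours could differ in these patterns. The last long-arm peaks, chr4:77979227-77979790 and chr4:77981545-77981900, start 2318 bp apart and were open in 184 and 163 nuclei. The first had an index of 14.0 and was open in 64 nuclei of cluster 3 and in none of cluster 7, whereas the second had an index of 0.817 and was open in 17 and 15 nuclei of those clusters. They were open together in 14 nuclei, with 17.4 expected. Similarly, chr4:74377293-74377723 starts 9536 bp from chr4:74367757-74368285, but stood at 3.05 times expected (1.67 to 5.12) in cluster 2, where the latter had 1 open nucleus. This pair was open together in 1 nucleus, with 2.03 expected.

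Co-openness, the number of nuclei open at both peaks of a pair over the number expected where each nucleus opens each peak independently at a rate set by its depth and its cluster, was taken over the 1326 pairs of the 52 peaks. Close pairs were more often open together than expected. For 15 pairs within 20 kb the ratio was 1.22 (1.03 to 1.44), beside 1.15 (1.13 to 1.17) below the limit, and these intervals overlap. For 29 pairs at 20 to 100 kb it was 1.23 (1.1 to 1.37), beside 1.05 (1.03 to 1.06), and these do not. At 100 kb to 1 Mb it was 1.06 (1.01 to 1.12) beside 1.0 (0.998 to 1.01), at 1 to 5 Mb 1.03 (0.999 to 1.06) beside 0.997, and beyond 5 Mb 0.989 (0.957 to 1.02) beside 0.994. Pairs that share a peak or a nucleus are not independent, so the intervals are too narrow. The ratios are of summed counts, in which the most open peaks weigh most, and the pairs were not matched on openness. The median tested peak was open in 94.5 nuclei on the long arm and in 109 below the limit. What this difference adds to the contrast of the 2 sides was not tested. With each of the 52 peaks left out in turn, the ratio at 20 to 100 kb stayed between 1.19 and 1.27, and that under 20 kb between 1.16 and 1.33. Single runs mattered more. Without run 3 or run 4 the ratio under 20 kb was 1.14 (0.907 to 1.42) or 1.16 (0.964 to 1.38), intervals that hold 1. Without run 4 the ratio at 20 to 100 kb was 1.16 (1.02 to 1.31), which overlaps the interval below the limit.

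**Figure D5:**
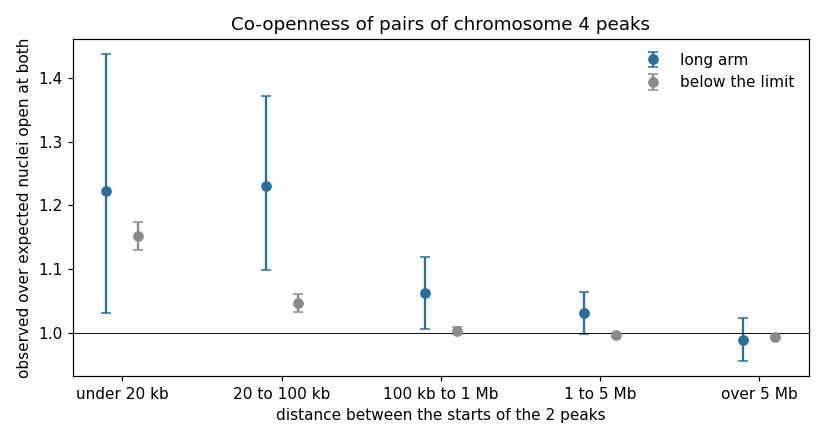
Points are observed over expected nuclei open at both peaks of a pair (y axis), summed over pairs in 5 classes of distance between starts (x axis), for long-arm pairs and for pairs below the limit, and bars are exact 95% Poisson intervals. The long-arm value at 20 to 100 kb, 1.23, lies above the 1.05 below the limit, and both fall to about 1 beyond 5 Mb.

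The distance classes up to 100 kb rest mostly on a few distal groups of peaks. The counts of single pairs given next were not made below the limit. Of the 29 pairs at 20 to 100 kb, 22 had a ratio above 1, with a median of 1.30, but only 1 had an interval above 1: chr4:76488423-76489120 with chr4:76575551-76575891, both open in 11 nuclei where 5.29 were expected (2.08, 1.04 to 3.72). Of the 15 pairs within 20 kb, 9 were above 1 and again 1 interval was: chr4:74359884-74360302 with chr4:74367757-74368285, both open in 30 nuclei where 18.1 were expected (1.66, 1.12 to 2.36). Expected from depth alone, without the clusters, the ratio under 20 kb was 1.5 (1.27 to 1.77), beside 1.28 below the limit. Taking the clusters into account thus lowered the ratio of near pairs on both sides of the limit.

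Over all 1326 long-arm pairs, whatever their distance, the median ratio was 0.992 and 650 pairs were above 1. The interval lay above 1 for 24 pairs and below 1 for 8, and 39 pairs had no nucleus open at both. With 1326 intervals of 95%, some miss 1 by counting error alone. Such counts were not made below the limit, so they are not read as a trait of the long arm. The 5 highest ratios came from small numbers. They ran from 5 nuclei where 1.5 were expected (3.34, 1.08 to 7.79), for chr4:38868033-38868393 with chr4:74377293-74377723, to 8 where 2.87 were expected (2.79, 1.20 to 5.49), for chr4:39751500-39751934 with chr4:74964012-74964310. Between these were chr4:73571780-73572062 with chr4:76926722-76927116 (4 nuclei), chr4:73651021-73651292 with chr4:73773543-73774097 (10 nuclei), and chr4:74923836-74924336 with chr4:77957689-77958008 (9 nuclei). Only 1 of the 5 pairs was closer than 1 Mb, at 122522 bp. The 2 most open long-arm peaks were both open in 88 nuclei where 95 were expected (0.926, 0.743 to 1.14), so no joint opening of them was detectable beyond their depth and clusters.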

How the data were processed

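Nuclei of nonCMs from 4 samples were assayed by 10x single-cell ATAC-seq. FastQC, Cell Ranger ATAC and the build danRer11 are named in the submitters' processing notes. Per the study's methods, the time points were merged, nuclei of low or excessive fragment number and clusters of cardiomyocytes and putative doublets were removed with SnapATAC, and MACS was run on sub-clusters. Whether the deposited columns are those peaks is not given in the sources used here. The deposited values are open calls of 0 or 1, although the table is called raw counts. No doublet caller was run here, and 0 columns were left unused.

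Expected calls were the calls of a set of peaks times the share of all open calls held by a group of nuclei. Clusters were made without chromosome 4, from peaks open in at least 10 nuclei, by TF-IDF, truncated singular value decomposition (15 components, without the component that follows depth), 15 neighbours and Leiden at resolution 1 (leidenalg 0.10.2, scipy 1.17.1, Python 3.11.15). Measures were tested on simulated data. Peaks were named by rank of openness, width, isolation, position at the limit, and highest and lowest ratio in runs, clusters and pairs. Other peaks were named after their values were seen. The members and lists were chosen with earlier results of these data known. Coordinates are as in the table, and width is end minus start. No genome or annotation of this build was used, so sequence, genes, cell type markers and how uniquely reads could be placed were not analysed here.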

Additional observations from a re-analysis of the deposited data

How the results depend on the processing

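Of 151 values recomputed under alternatives, 132 stayed within the 95% interval of the reported value. The co-openness values with a start limit of 35 Mb are among them but could not move. No peak that starts between 30 and 35 Mb was open in at least 50 nuclei, so the pairs were the same. Density moved to 6.16 peaks per Mb with a start limit of 25 Mb and to 2.19 for those open in at least 1% of nuclei, whose median width was 405.5 bp. Median openness moved to 1.23% in nuclei with at least 1000 open peaks and 1.28% for peaks open in at least 10 nuclei. The share of calls moved to 0.449% with the limit at 25 Mb and 0.216% without the 2 most open peaks. Cluster 1 moved to 0.863 at resolution 0.5 and 0.860 with 30 components, where it merged with other nuclei. Cluster 3 moved to 1.22 in nuclei with at least 1000 open peaks, 1.38 in thinned nuclei and 1.38 without run 3. Clusters 3 and 8 shared 1 match at resolution 0.5 (502 nuclei), with 30 components (445) and in nuclei with at least 1000 open peaks (317). Its values of 1.24, 1.24 and 1.22 were counted for each of them among the 151, so these alternatives did not check the clusters apart. Cluster 9 moved to 0.880 in nuclei with at least 1000 open peaks, where its match had 22 nuclei and its interval, 0.672 to 1.13, held 1. Co-openness under 20 kb and at 1 to 5 Mb moved to 1.5 and 1.08 from depth alone and 1.48 and 1.07 from depth and run, that beyond 5 Mb to 1.03 in nuclei with at least 1000 open peaks, and that at 100 kb to 1 Mb to 1.12 without the deepest 10% of nuclei. For values whose cause the construction does not show, the cause was not tested.

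Thinning, leaving out runs, peaks or uneven peaks, and the spread index were chosen after seeing the data. No paired analysis was possible because the 4 samples share 1 table with no map from nuclei to samples. The planned description of sequence and annotation was not run. With 1 pooled sample, intervals leave out variation between fish and libraries, and depth limits single peaks, whose pairs had a median expected number of 4.70 nuclei.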
